A study of Homo sapiens with 10 samples.

Results

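Across the 31848 gene clusters quantified in these libraries, 221 clusters had a mean transcript length under 700 nt over the 10 libraries and a mean level of 2 CPM (counts per 1000000 counts of the library) or more. These 221 short clusters were chosen by their length and mean level, so both are given as descriptions with no test. The selection started from 225 clusters, of which 4 were left out by identifier. The cells were HEK293T, a human embryonic kidney cell line carrying the SV40 large T antigen. All 5 groups were transfected with Lipofectamine 2000, and each group had 2 poly(A)-selected RNA-seq libraries. In 4 groups the cells received a catalytically dead Cas9 (dCas9) activator, labelled VP64, VPR, SAM or Suntag, with a guide RNA to the fetal globin gene HBG1. The remaining group was labelled Guide Only Control, and the labels do not say whether its guide was the one to HBG1. Whether the 2 libraries of a group are from separate cultures is not stated in the labels. The p-values therefore cover the spread among these libraries alone, and that spread may be technical.

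A dCas9 activator binds DNA through its guide RNA without cutting it and carries protein domains that recruit the transcription machinery. VP64 is a string of short acidic activation domains, and VPR joins VP64 to the activation domains of p65 and Rta. SAM adds activators through RNA loops in the guide, and Suntag carries a peptide array to which antibody-fused VP64 binds. Short polyadenylated transcripts in human cells include many that encode ribosomal proteins and small subunits of the mitochondrial respiratory chain. The identifiers used here were not matched to gene names, so which of the 221 clusters encode such proteins was not analysed here, and the HEK293T label was not checked against marker genes. Clusters are described by transcript length, number of transcripts and level. Cluster numbers are printed for 3 of them.

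The 221 short clusters had lengths of 299 to 699 nt, with a median of 582 nt. The median over all 12570 clusters of 2 CPM or more was 2913 nt. Of the short clusters, 1 was under 300 nt, 56 were from 300 to under 500 nt and 164 were from 500 to under 700 nt. Levels ran from a mean of 2.14 to 1108 CPM with a median of 34.7 CPM, against 29.1 CPM over all clusters of 2 CPM or more. Per unit of length, the median level was 154 TPM (transcripts per 1000000 transcripts) against 20.2 TPM. A single transcript made up 106 of the short clusters (48.0%), against 19.1% of all clusters at that level. The 10 most abundant short clusters held 32.3% of the summed CPM of the set, and the 50 most abundant held 81.3%. Counts were whole in every library, within 0.01, for 38 short clusters (17.2%), against 20.5% of all clusters of 2 CPM or more. Where counts were not whole, reads had been divided between clusters, so their split between similar sequences is uncertain. The library chemistry does not mark strand, so overlapping and antisense genes cannot be told apart.

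At the length limit, the nearest clusters inside were 3 of 699 nt with levels of 3.34, 5.44 and 9.89 CPM. The nearest outside had lengths of 701 nt at 2.38 CPM, 701 nt at 2.44 CPM and 701.31 nt at 53.6 CPM. At the level limit, the nearest inside stood at 2.14, 2.25 and 2.37 CPM and the nearest outside at 1.93, 1.88 and 1.84 CPM. All 221 short clusters passed the filter on low counts, which left 13241 clusters in the tests.

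Library totals were 3316534 to 7447949 expected counts, of which the short clusters held 84971 to 229464. The median short cluster had 110 to 264 counts per library. In bulk libraries, a change in RNA per cell cannot be told apart from a change in the share of cells of a kind.

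The short clusters held a larger share of the counts in every activator library than in either control library. In the control, their share was 2.38% in replicate 1 and 2.34% in replicate 2. The VPR libraries stood highest, at 3.29% and 3.08%. The VP64 libraries held 3.01% and 2.95%. SAM held 2.47% and 2.78%, and Suntag held 2.97% and 2.44%, so the libraries of these 2 groups lay further apart. Group means were 2.36% ± 0.0306 in the control, 2.98% ± 0.0451 in VP64, 3.19% ± 0.151 in VPR, 2.63% ± 0.219 in SAM and 2.70% ± 0.371 in Suntag (SD, n = 2). With 2 libraries against 2, no 2-sided exact permutation test of such a share can fall below p = 0.333, so none is given.

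On the TPM scale, which divides by an estimated effective length, the separation was smaller. The control libraries gave 12.0% and 11.8% of the summed TPM to the short clusters. VPR stood at 14.7% and 14.1%, VP64 at 14.1% and 14.0%, and SAM at 12.2% and 13.0%. Suntag stood at 13.5% and 11.1%, so its replicate 2 lay below both controls.

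The estimated fragment length, read as transcript length minus effective length in long clusters, also separated the control from the activator libraries. It was 133 and 129 nt in the control, 103 and 123 nt in VP64, 111 and 113 nt in VPR, 116 and 97.5 nt in SAM, and 96.6 and 89.8 nt in Suntag. Every activator library had shorter fragments than both controls, so fragment length and the presence of an activator cannot be told apart in this design. The order within the activators was different, since Suntag had the shortest fragments and VPR the largest shares of counts. The median effective length of the short clusters was 77.4% and 78.0% of the transcript length in the control and 79.0% to 84.6% in the activator libraries. In clusters of 3000 nt or more it was 97.0% to 98.0% in all libraries.

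**Figure D1:**
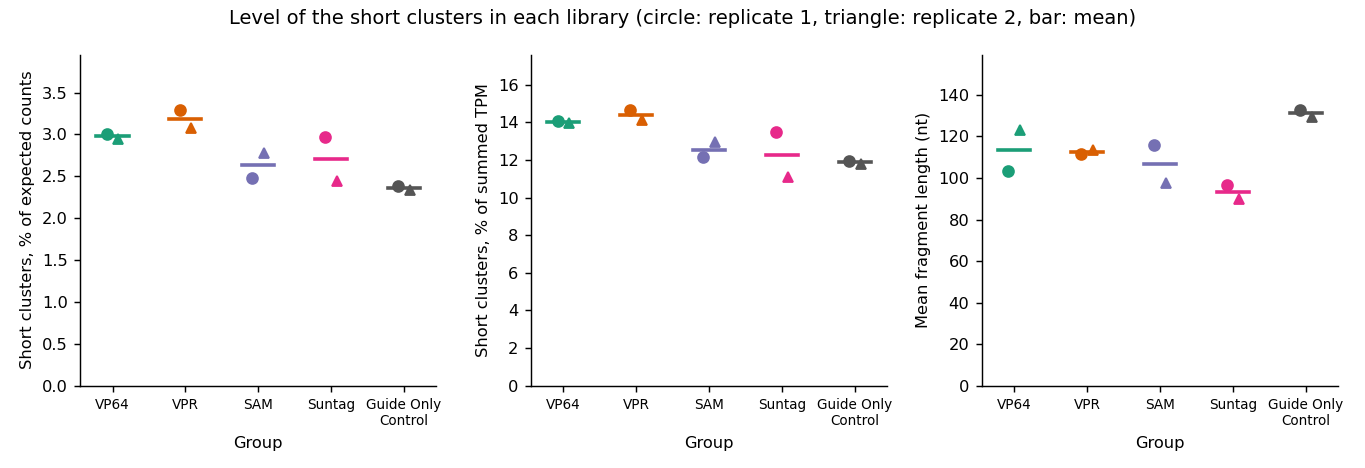
Share of expected counts (percent, left) and of summed TPM (percent, middle) held by the 221 short clusters, and mean fragment length (nt, right), in each library. Circles are replicate 1, triangles replicate 2 and bars the group mean. All 8 activator libraries lie above both controls in counts and below both in fragment length, and Suntag replicate 2 lies below the controls in TPM.

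Single clusters moved with the sum. In the control, 15.4% and 9.50% of the short clusters were above their own mean over the 10 libraries. In VPR 90.0% and 87.8% were, in VP64 76.9% and 75.1%, in SAM 23.5% and 55.2%, and in Suntag 75.6% and 37.1%. The median deviation of the short clusters from their own means was -0.24 and -0.27 in the control and 0.27 and 0.19 in VPR, in log2 units. Over all tested clusters, that median lay between -0.00 and 0.01 in every library. By group mean of CPM, 113 of the short clusters were highest in VPR, 37 in Suntag, 32 in SAM, 30 in VP64 and 9 in the control. By the same means, 149 were lowest in the control. These means were not scaled by TMM, unlike the other values of this paragraph. The same order was not counted over all tested clusters, so no share stands beside it. For 68 short clusters (30.8%), the 2 control values were lower than all 8 activator values. The same was true of 5.7% of all tested clusters. The opposite order, both controls above all 8, held for 2 short clusters (0.905%) against 4.98% of all tested clusters.

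The replicates of the short clusters were about as close as those of other clusters in 3 groups and further apart in the other two. The median absolute log2 difference between replicates was 0.13 in the control against 0.14 over all tested clusters. It was 0.13 against 0.14 in VP64 and 0.14 against 0.16 in VPR. In SAM it was 0.20 against 0.15, with replicate 2 the higher by a median of 0.16. In Suntag it was 0.30 against 0.17, with replicate 2 the lower by a median of 0.23.

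Each activator was compared with the same 2 control libraries by edgeR's quasi-likelihood test, with p-values adjusted over all 13241 tested clusters by Benjamini-Hochberg and calls made at an adjusted p under 0.05. Changes are log2 ratios of TMM-scaled counts. Because the 4 comparisons share their controls, their counts are given side by side and no overlap between them is read. Shares over all tested clusters are those of the main fit at an adjusted p under 0.05. Counts from other settings, and those at an unadjusted p, are given without the matching share. They show how the counts move and do not show an excess in the short clusters.

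VPR gave the most calls. Of the 221 short clusters, 89 rose in VPR (40.3%), against 4.58% of all tested clusters. None was called lower, against 2.02% of all tested clusters. At an unadjusted p under 0.05, edgeR gave 1 lower, and DESeq2 also called none lower. The own filter of DESeq2 left many of the 221 without an adjusted p, which also limits its counts below. Without that filter, the number it called higher in VPR stayed within 1.5 times the edgeR count. The median change of the short clusters was 0.48, against -0.02 over all tested clusters, and 93.2% of them had a positive change. The 89 rose by 0.34 to 1.17 log2 units with a median of 0.63, and 6 of them rose 2-fold or more. The count fell to 31 without VPR replicate 1, to 45 without control replicate 1 and to 31 without control replicate 2, and DESeq2 called 55.

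In VP64, 21 short clusters rose (9.50%), against 0.665% of all tested clusters, and none was called lower, against 0.151%. At an unadjusted p under 0.05, edgeR gave 1 lower, and DESeq2 called none lower. The median change was 0.38, against -0.00 over all tested clusters, and 90.5% were positive, against 49.5%. The 21 rose by 0.40 to 0.92. None was called higher without VP64 replicate 1, VP64 replicate 2 or control replicate 2, and 1 without control replicate 1, while 69 were called without either Suntag library. A fit on the VP64 and control libraries alone called 88.

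In Suntag, 22 short clusters rose (9.95%), against 0.989% of all tested clusters, by 0.35 to 1.22. None was called lower, against 0.34% of all tested clusters. At an unadjusted p under 0.05, edgeR gave 4 lower, and DESeq2 called none lower. The median change was 0.27, against 0.00 over all tested clusters. The count of higher calls was 2 without control replicate 1, 1 without control replicate 2, and 10 without either VP64 library, and a fit on the Suntag and control libraries alone called 3. Without Suntag replicate 1, 11 were called lower, and without either SAM library 1 was.

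In SAM, 18 short clusters rose (8.14%), against 2.27% of all tested clusters, and 1 fell, against 2.94%. The median change was 0.22, against 0.01 over all tested clusters. The 18 rose by 0.39 to 1.43, and 3 of them rose 2-fold or more. The count was 1 without SAM replicate 1, 0 without SAM replicate 2, 2 without control replicate 1, 1 without control replicate 2 and 35 without either Suntag library. DESeq2 called 5 higher and 0 lower, and a fit on the SAM and control libraries alone called 37 higher.

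With the 4 activators averaged, 66 short clusters rose (29.9%), against 2.76% of all tested clusters, and 1 fell, against 1.43%. The median change was 0.33, against -0.01. This contrast leaned on the 2 control libraries, since 5 were called higher without control replicate 1 and 0 without control replicate 2. It was 42 without SAM replicate 2 and 109 without Suntag replicate 2. The 1 lower call was absent without VP64 replicate 2, either VPR library or either control library, and 2 were called lower without Suntag replicate 1.

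**Figure D2:**
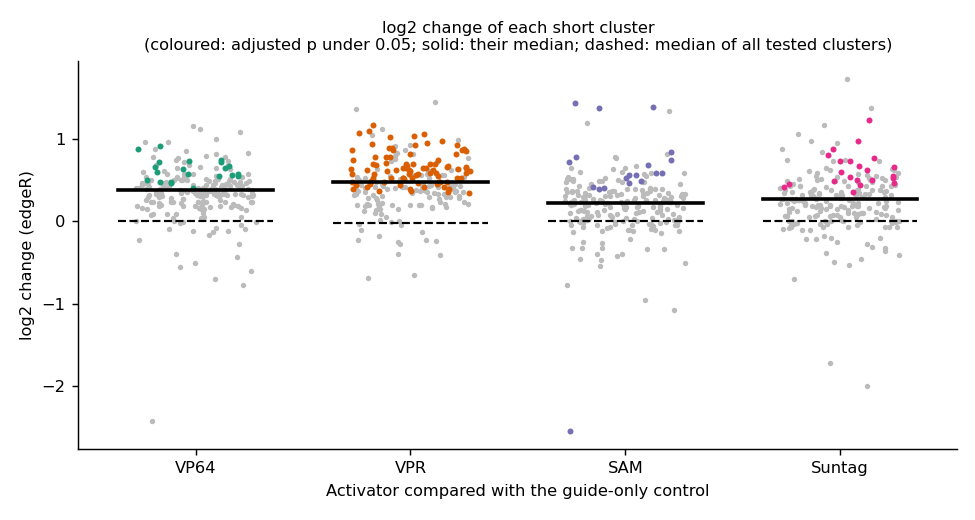
log2 change of each of the 221 short clusters against the Guide Only Control in each activator. Coloured points have an edgeR adjusted p under 0.05, solid bars are the median of the short clusters and dashed bars the median of all 13241 tested clusters. The short clusters' medians are 0.38 in VP64, 0.48 in VPR, 0.22 in SAM and 0.27 in Suntag.

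Use of the effective length estimated in each library as an offset lowered the median changes of the short clusters. They became 0.32 in VP64, 0.42 in VPR, 0.15 in SAM and 0.17 in Suntag. The higher calls became 8 in VP64, 67 in VPR, 5 in SAM and 3 in Suntag. On TPM, the median log2 ratio to the control was 0.21 in VP64, 0.24 in VPR, 0.16 in SAM and 0.11 in Suntag, against -0.11, -0.19, 0.02 and -0.07 over all tested clusters.

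The median change differed between classes of transcript length. In VPR, the median was 0.53 in the short clusters of 300 to under 500 nt and 0.45 in those of 500 to under 700 nt. It was 0.28 in the 1607 clusters of 700 to under 1500 nt and -0.13 in the 6050 of 3000 nt or more. In VP64 the same classes had medians of 0.46, 0.35, 0.16 and -0.05. In SAM they were 0.22, 0.22, 0.11 and -0.03. In Suntag they were 0.21, 0.27, 0.20 and -0.07, so its shortest class was not the highest. In VPR, 19 of 56 and 70 of 164 short clusters were called higher in the 2 classes, and 19.9% of the clusters of 700 to under 1500 nt.

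A fit that removed each library's smooth trend on log transcript length moved the medians of the short clusters to 0.02 in VP64, -0.02 in VPR, -0.02 in SAM and -0.05 in Suntag. That fit takes out a trend on the same length that chose the clusters. Its higher calls were 2 in VPR, 0 in VP64, 4 in SAM and 0 in Suntag, and at an unadjusted p under 0.05 edgeR gave 21 of the short clusters higher in VP64 and 17 in Suntag.

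**Figure D3:**
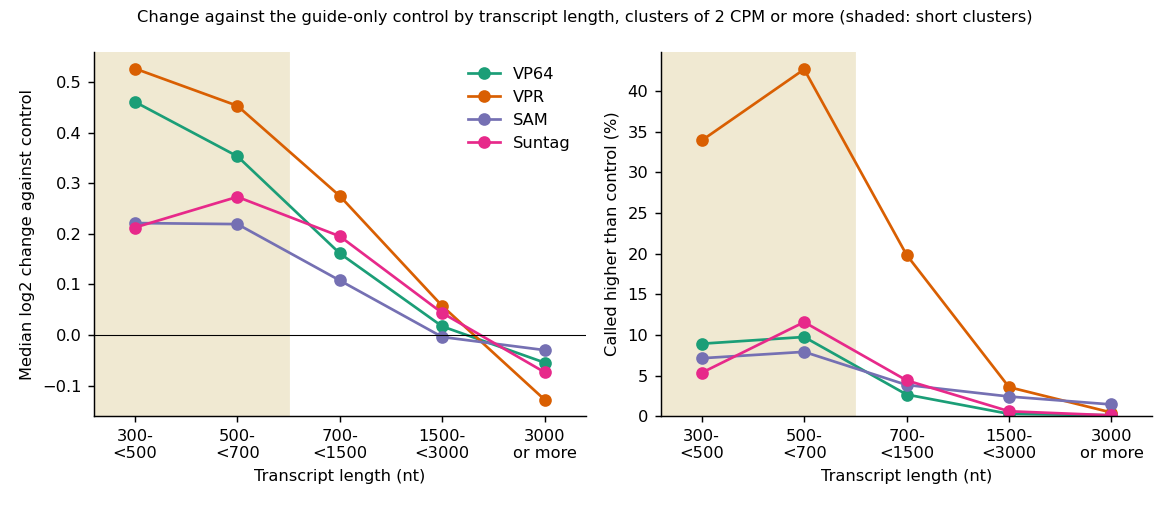
Median log2 change against the control (left) and percent of clusters called higher by edgeR (right) for clusters of 2 CPM or more, by transcript length class (nt), with 1 line per activator. The shaded classes are the short clusters, and in VPR the median runs from 0.53 in the shortest class to -0.13 in the longest. On the right, all 4 activators are higher at 500 to under 700 nt than at 300 to under 500 nt, 42.7% against 33.9% in VPR.

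Calls depended on level. Of the short clusters in VPR, 0 of 52 at 2 to under 10 CPM were called higher, 55 of 118 at 10 to under 100 CPM (46.6%) and 34 of 51 at 100 CPM or more (66.7%). In longer clusters of the same levels, 0.580%, 3.80% and 10.7% were called higher. In VP64 the counts were 0, 9 (7.63%) and 12 (23.5%), against 0.0725%, 0.340% and 1.90% of the longer clusters. In Suntag they were 0, 15 (12.7%) and 7 (13.7%), against 0.0725%, 0.812% and 2.21%. In SAM they were 2 (3.85%), 15 (12.7%) and 1 (1.96%), against 1.67%, 2.28% and 2.26%. Low counts limit precision, so a change in the 52 least abundant was harder to detect at this depth. Their median change also differed from that of the 2 higher levels. It was 0.32 in VPR, against 0.52 and 0.48, and 0.33 in VP64, against 0.38 and 0.39. In Suntag it was 0.19, against 0.31 and 0.19, and in SAM 0.22, against 0.31 and 0.12. What set the number of calls at each level was not tested. Among the 38 short clusters with whole counts, 12 rose in VPR, with a median of 0.57 over the 38. The other 183 gave 77, with a median of 0.46.

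**Figure D4:**
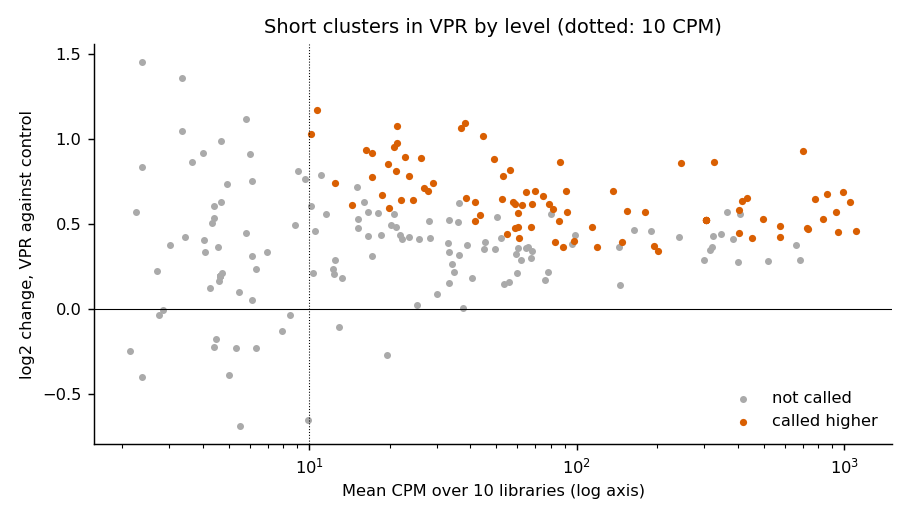
log2 change in VPR against the control for each of the 221 short clusters by its mean CPM over 10 libraries (log axis). Orange points are called higher by edgeR, and none of the 52 clusters left of the dotted line at 10 CPM is called.

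The 10 most abundant short clusters, from 725 to 1108 CPM, had summed levels of 7520 and 7475 CPM in the control libraries. In VPR their sum was 10885 and 10052 CPM, and in VP64 it was 9760 and 9650 CPM. In SAM it was 7775 and 8694 CPM, and in Suntag 9370 and 8330 CPM. All 8 activator libraries thus exceeded both controls in CPM, which is not scaled by TMM. SAM replicate 1 lay nearest to the controls, with a TMM factor of 1.05 against their 1.01 and 1.03. The sums are not given on the TMM scale, so the place of SAM replicate 1 above both controls is not shown there. By the test, all 10 rose in VPR, 5 of the 10 in VP64 and 1 in Suntag, and none was called in SAM. At an unadjusted p under 0.05, edgeR gave 2 of the 10 in SAM, and DESeq2 called 0.

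The most abundant, a single transcript of 695 nt, stood at 1028 and 983 CPM in the control and at 1334 and 1282 CPM in VPR. Its change in VPR was 0.46 ± 0.11 (SE, edgeR adjusted p = 0.018). The call was lost without VPR replicate 1 or either control library. It was also lost with the length trend removed, where the change was 0.02 (edgeR adjusted p = 0.965). SAM, at 1005 and 1084 CPM, overlapped the control. A transcript of 531 nt stood at 580 and 624 CPM in the control, 911 and 912 CPM in VP64, and 967 and 823 CPM in VPR. It was at 618 and 696 CPM in SAM and at 750 and 895 CPM in Suntag. It rose in VP64, VPR and Suntag, by 0.66, 0.65 and 0.48, and its change in SAM was 0.10. The call in VP64 was lost without either VP64 library or either control library. The call in Suntag was lost without those same libraries and without Suntag replicate 2. It was also lost with the effective length offset (edgeR adjusted p = 0.0856) and with the 2 groups alone (0.114). With the length trend removed, the calls in VP64, VPR and Suntag were all lost (edgeR adjusted p = 0.271, 0.667 and 0.556).

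Among the more abundant short clusters, a single transcript of 561 nt had the largest changes in VPR. It stood at 512 and 501 CPM in the control and at 952 and 875 CPM in VPR, a rise of 0.93 ± 0.10 (SE, edgeR adjusted p = 0.000327). All 8 activator libraries, the lowest at 607 CPM in SAM, exceeded both controls. This transcript was picked for its change in VPR against the same controls. A 520 nt transcript stood at 23.2 and 26.0 CPM in the control, 59.8 and 41.8 CPM in VPR, and 43.0 and 44.2 CPM in VP64. A 546 nt transcript stood at 25.3 and 24.5 CPM in the control, 50.3 and 48.4 CPM in VPR, and 42.2 and 48.5 CPM in VP64. Both rose in VPR, by 1.10 and 1.06, and in VP64, by 0.88 and 0.92. Both VP64 calls were lost without either VP64 library or either control library. With the length trend removed, both transcripts lost their VPR and VP64 calls (edgeR adjusted p = 0.0631 to 0.193). The 520 nt transcript also lost its VP64 call with the effective length offset (edgeR adjusted p = 0.0657). For the 546 nt transcript, Suntag replicate 2, at 24.7 CPM, lay between the control libraries.

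Cluster 5098, a single transcript of 575 nt, was called higher in each of the 4 activators. Its levels were 181.1 and 177.6 CPM in the control and 267.3 and 270.2 CPM in VP64. VPR gave 324.7 and 292.3 CPM, SAM 239.9 and 238.3 CPM, and Suntag 244.1 and 224.0 CPM. It was chosen for being called higher in the most activators, so its order against the control follows in part from the choice. Every activator library lay above both controls, and the VPR libraries lay above all others. The rises were 0.65 in VP64, 0.86 ± 0.09 (SE) in VPR, 0.39 in SAM and 0.42 in Suntag, with edgeR adjusted p of 0.00878, 0.000327, 0.0226 and 0.0316. The SAM and Suntag calls were lost with the effective length offset (adjusted p = 0.0605 and 0.116), and without control replicate 2 only the VPR call held. With the length trend removed, the VP64, SAM and Suntag calls were lost (edgeR adjusted p = 0.126, 0.198 and 0.617). With the 2 groups alone, the Suntag call was lost (edgeR adjusted p = 0.135). The VP64 call was also lost without either VP64 library, the SAM call without either SAM library or control replicate 1, and the Suntag call without Suntag replicate 1, control replicate 1, or any 1 of the VP64 or SAM libraries.

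Cluster 13527, with 2 transcripts and a mean length of 560 nt, stood at 15.2 and 14.0 CPM in the control. It was at 29.3 and 22.7 CPM in VPR, 25.6 and 27.3 CPM in SAM, 25.3 and 27.1 CPM in Suntag, and 19.1 and 22.9 CPM in VP64. All 8 activator libraries exceeded both controls, and those of SAM, Suntag and VPR overlapped each other. It rose by 0.89 in VPR, 0.84 in SAM and 0.88 in Suntag (edgeR adjusted p = 0.00504, 0.013 and 0.0208), and its change in VP64 was 0.57 (adjusted p = 0.135). None of these calls held without control replicate 2. The VPR call was also lost without VPR replicate 1, and the SAM call without either SAM library or control replicate 1. The Suntag call was also lost without control replicate 1 or with the effective length offset. It was lost too with the 2 groups alone (edgeR adjusted p = 0.0528) and in DESeq2 run without its filter (adjusted p = 0.0502). With the length trend removed, the VPR and Suntag calls were lost (edgeR adjusted p = 0.293 and 0.167).

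Cluster 10120, a single transcript of 699 nt, was the 1 short cluster that fell, and it is named after its values were seen. It stood at 17.2 and 18.4 CPM in the control, 16.5 and 7.6 CPM in VP64, and 11.2 and 10.4 CPM in VPR. SAM gave 6.9 CPM and a listed value of 0, where a floor of 3 counts is 0.676 CPM, and Suntag gave 6.3 and 4.3 CPM. All 8 activator libraries lay below both controls, with VP64 replicate 1 the nearest. Its change in SAM was -2.54 ± 0.58 (SE, edgeR adjusted p = 0.0226), and -1.39 without SAM replicate 2 (adjusted p = 0.117). The call was also lost without either control library. DESeq2 run without its filter gave a change of -2.39 and did not call it (adjusted p = 0.515). Its counts were not whole, so its reads were divided with other clusters.

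**Figure D5:**
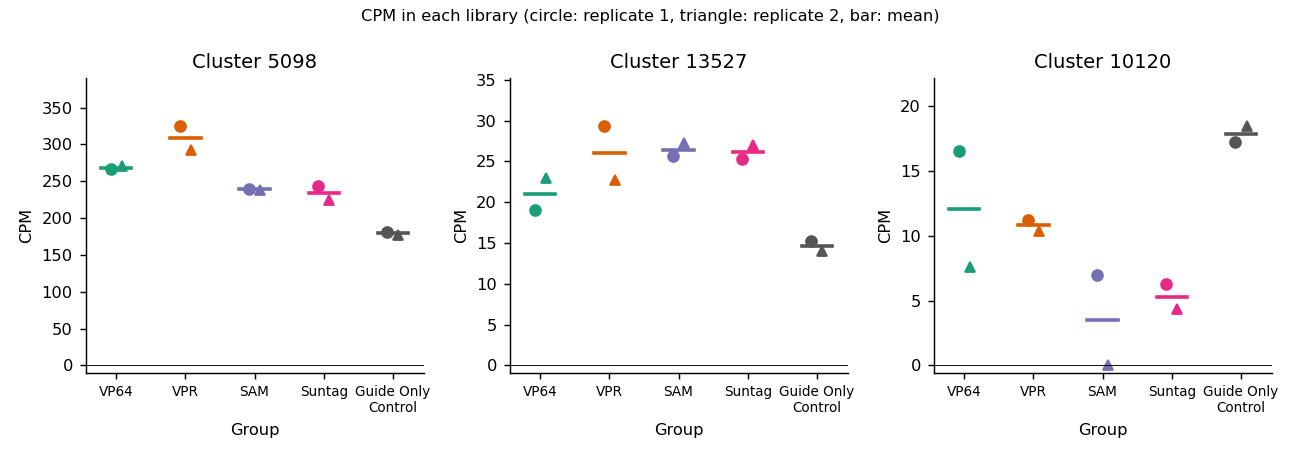
CPM of clusters 5098, 13527 and 10120 in each of the 10 libraries, by group. Circles are replicate 1, triangles replicate 2 and bars the group mean. The clusters were chosen by their calls against the control. The control lies below all activator libraries in the first 2 and above all in cluster 10120.

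Some short clusters had their largest changes outside VPR. The shortest, a single transcript of 299 nt, stood at 8.13 and 9.83 CPM in the control and at 19.8 and 27.9 CPM in SAM. Its rise in SAM was 1.38 ± 0.21 (SE, edgeR adjusted p = 0.00337), and 1.08 without SAM replicate 2 (adjusted p = 0.0664). A 318 nt transcript, at 3.19 and 3.34 CPM in the control and 8.46 and 9.55 CPM in SAM, rose by 1.43. That call was lost with the effective length offset (edgeR adjusted p = 0.0532) and with the length trend removed (0.096). It was also lost without either SAM or either control library, and in DESeq2 run without its filter (adjusted p = 0.115). In Suntag, a 654 nt transcript with whole counts stood at 12.0 and 15.8 CPM, against 6.65 and 5.60 CPM in the control, a rise of 1.22. That call was lost with the effective length offset (edgeR adjusted p = 0.0569), with the 2 groups alone (0.0868) and with the length trend removed (0.15). It was also lost without Suntag replicate 2 or either control library, and in DESeq2 run without its filter (adjusted p = 0.0756). A cluster of 4 transcripts averaging 408.21 nt stood at 37.1 and 38.9 CPM in Suntag, against 19.5 and 20.1 CPM in the control. It rose by 0.97 ± 0.12 (SE, edgeR adjusted p = 0.00369), and its Suntag libraries lay above all others. The cluster was picked for its large Suntag change, so that order follows in part from the choice. Its call was lost with the length trend removed (edgeR adjusted p = 0.0781).

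Pairs of activators were compared in the same fit, 6 in all. VPR exceeded SAM in 34 short clusters (15.4%), against 3.56% of all tested clusters, and was lower in 1, against 2.11%. The median difference was 0.29. The 34 differed by 0.36 to 0.85 and had a median level of 314 CPM. All of the 10 most abundant were among them, with differences of 0.40 to 0.55. The count was 0 without VPR replicate 1, 1 without SAM replicate 1, 13 without SAM replicate 2, and 61 and 60 without Suntag replicate 1 and 2. The 1 lower was a cluster of 3 transcripts averaging 617.73 nt, at 3.96 and 2.71 CPM in VPR and 7.40 and 8.43 CPM in SAM. Its call was lost without VPR replicate 2, where the difference was -0.87. It was not called by DESeq2 run without its filter (adjusted p = 0.279), with the effective length offset (0.0685) or with the replicate block (0.0618). Nor was any called lower without 1 of the VP64 or SAM libraries or VPR replicate 1, and 2 were without either Suntag library.

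SAM was lower than VP64 in 9 short clusters, against 2.77% of all tested clusters, and higher in 2, against 1.52%. The median difference was -0.17. The 9 had a median level of 519 CPM and included 4 of the 10 most abundant. The 2 higher were the 299 nt transcript and one of 594 nt, at 44.0 and 43.7 CPM in SAM and 27.7 and 24.4 CPM in VP64. The lower count was 1 and 2 without SAM replicate 1 and 2, 0 without either VP64 library, 38 and 39 without Suntag replicate 1 and 2, and 6 without either VPR library. The higher count was 0 without any 1 of the SAM or VP64 libraries.

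Few or no short clusters separated the other pairs. Suntag exceeded VP64 in 1, against 0.121% of all tested clusters, and was lower in none, against 0.113%; at an unadjusted p under 0.05 edgeR gave 40 lower, and DESeq2 called 2 lower. SAM was lower than Suntag in 1, against 1% of all tested clusters, and higher in none, against 0.717%; at an unadjusted p under 0.05 edgeR gave 7 higher, and DESeq2 called 0. The cluster called in both pairs was a 682 nt transcript. It stood at 176 and 197 CPM in Suntag, 134 and 123 CPM in VP64, 125 and 132 CPM in SAM, 149 and 141 CPM in VPR, and 143 and 135 CPM in the control. Its Suntag libraries lay above all others, and it rose in Suntag by 0.46 ± 0.09 over the control (SE, edgeR adjusted p = 0.0228). The transcript was picked as called in these pairs, so its order follows in part from the choice. Without Suntag replicate 1, Suntag was lower than VP64 in 53 and higher in 3, and SAM exceeded Suntag in 22 and was lower in 6. The 1 cluster higher in Suntag than in VP64 was not called without either VP64 library or Suntag replicate 2, or with the effective length offset. SAM was lower than Suntag in 0 without SAM replicate 1, in 3 without Suntag replicate 2, and in 2 without SAM replicate 2 or either control library.

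Between VPR and VP64, edgeR called no short cluster in either direction, against 0.00755% of all tested clusters higher and 0% lower. At an unadjusted p under 0.05 it gave 21 higher and 1 lower, and DESeq2 called none. The median difference was 0.12, so the larger count of calls in VPR than in VP64 was not shown as a difference between them. Between VPR and Suntag, edgeR called none in either direction, against 0% of all tested clusters each way. At an unadjusted p under 0.05 it gave 79 higher and 8 lower, and DESeq2 called 6 higher. The shares over all tested clusters in these pairs are at the adjusted threshold and are no baseline for counts at an unadjusted p. Without Suntag replicate 1, 64 were called higher and 3 lower.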

How the data were processed

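Poly(A)-selected RNA from 10 HEK293T libraries, 2 in each of 5 groups taken from the sample titles, was quantified by the authors with RSEM 1.2.1 on hg19, per the submitters' processing notes. The deposited tables hold expected counts, TPM, transcript length and effective length for each cluster, per the file headers. Expected counts are reads divided between similar sequences, and the authors' TPM values divide them by effective length. The deposited tables also hold the authors' FPKM values, which were not used here.

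Counts were rounded and tested with edgeR 4.0.16 in R 4.3.3, with TMM factors, filterByExpr, 1 quasi-likelihood fit over all 5 groups with 5 residual degrees of freedom, and Benjamini-Hochberg adjustment over 13241 clusters. CPM used the summed expected counts of each library. DESeq2 1.42.0, other scalings, no filter, offsets for effective length or a trend on length, the compared groups alone, a replicate block and each library left out in turn were tried as alternatives, and DESeq2 without its own filter was added after the data were seen. Tables and plots were made with Python 3.11.15. The fits were also run on simulated data, and the outcome is neither given nor used as support here. TMM factors were 0.962 to 1.05. Fragment length was the median difference of length and effective length in clusters over 5000 nt.

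The members and the lists were chosen with earlier results of these data known. Cluster numbers are given to the 2 clusters of 10 CPM or more called higher against the control in the most activators with the largest pooled change. Other clusters are described by length: the 10 most abundant, the called ones with the largest changes, and those nearest the limits of length and level. Gene names and sequences were not matched to these identifiers and are not used here.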

Additional observations from a re-analysis of the deposited data

Results flagged for a closer look

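The differences below are between 2 activators for the same short cluster. Each was tested directly by edgeR and called in the main fit, with adjusted p under 0.05. Several of these calls were lost in other settings. Between VPR and SAM, the log2 difference was 0.47 for cluster 5098. For the 10 most abundant short clusters it was 0.43 (695 nt), 0.46 (472.34 nt), 0.40 (511.48 nt), 0.44 (661.98 nt), 0.52 (671 nt), 0.44 (646 nt), 0.46 (659.97 nt), 0.55 (531 nt), 0.40 (589.46 nt) and 0.41 (575 nt, 3 transcripts), all higher in VPR. VPR was also higher by 0.58 (546 nt), 0.62 (520 nt), 0.47 (460 nt), 0.58 (561 nt), 0.72 (655 nt) and 0.85 (612.67 nt, 6 transcripts). For the cluster of 617.73 nt, the difference was -1.17, lower in VPR. The 655 nt call was lost with library totals alone, the replicate block or the effective length offset (edgeR adjusted p = 0.0554 to 0.0591). The 655 nt and 612.67 nt calls were both lost with the length trend removed (edgeR adjusted p = 0.162 and 0.118). Both were also lost in DESeq2 run without its filter (adjusted p = 0.143 and 0.0893).

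SAM differed from VP64 by -0.30 (661.98 nt), -0.45 (671 nt), -0.34 (659.97 nt) and -0.56 (531 nt), which were among the most abundant, and by 0.83 (299 nt) and 0.65 (594 nt). The 299 nt and 594 nt calls were lost in DESeq2 run without its filter (adjusted p = 0.169 and 0.0774). The 299 nt call was also lost with the effective length offset (edgeR adjusted p = 0.0521). For the 682 nt transcript, Suntag exceeded VP64 by 0.50 and SAM was below Suntag by a difference of -0.59. With 2 libraries a group, no library was tested for standing apart from the rest of its group.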

How the results depend on the processing

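Counts below are of short clusters called higher unless lower is stated. They are given without the share over all tested clusters in the same setting, so a moved count is not read as particular to the short clusters. RLE factors kept all 22 counts within 1.5 times. DESeq2 gave 55 in VPR, 14 in Suntag, 5 and 0 lower in SAM, and 0 lower in the pooled contrast, against the control. Between activators it gave 22 and 0 lower for VPR against SAM, 6 lower for SAM against Suntag, 0 for SAM against VP64, 2 lower for Suntag against VP64 and 6 for VPR against Suntag. Its own filter left 110 to 178 of the 221 without an adjusted p, except for VPR against VP64, where it left 0. Without that filter, which was chosen after seeing the data, it gave 6 and 0 lower in SAM, 0 lower pooled, 19 and 0 lower for VPR against SAM, 3 lower for SAM against Suntag, 0 for SAM against VP64, 1 lower for Suntag against VP64 and 5 for VPR against Suntag. With the compared groups alone, the counts were 88 and 1 lower in VP64, 1 lower in VPR, 37 in SAM, 3 and 1 lower in Suntag, 56 and 2 lower for VPR against SAM, 4 and 52 lower for SAM against VP64, 1 for SAM against Suntag and 1 for VPR against VP64. With no filter on low counts they were 79 and 1 lower in VP64, 133 and 1 lower in VPR, 35 and 3 lower in SAM, 53 and 3 lower in Suntag and 109 and 2 lower pooled. Between activators they were 70 and 2 lower for VPR against SAM, 44 lower for SAM against VP64, 5 and 26 lower for Suntag against VP64, 2 and 18 lower for SAM against Suntag, 52 and 1 lower for VPR against Suntag and 2 for VPR against VP64. With library totals alone they were 12 in VP64, 2 lower for VPR against SAM, 1 for SAM against Suntag and, for SAM against VP64, 4 and 2 lower. With the effective length offset they were 8 in VP64, 5 in SAM, 3 in Suntag, 38 and 0 lower pooled, 0 lower for VPR against SAM, 1 for SAM against VP64 and 0 for Suntag against VP64. With the length trend removed they were 0 in VP64, 2 and 1 lower in VPR, 4 and 5 lower in SAM, 0 in Suntag, 0 pooled, 1 and 2 lower for VPR against SAM, 1 for SAM against Suntag and, for SAM against VP64, 5 and 2 lower. That fit reversed medians to -0.0242 in VPR, -0.0213 in SAM, -0.0482 in Suntag, -0.027 pooled, -0.0282 for VPR against VP64 and 0.0517 for SAM against Suntag. It also reversed the changes of the clusters of 472.34 nt (pooled -0.027), 661.98 nt (VPR -0.0027, pooled -0.0389), 589.46 nt (VPR -0.0242, pooled -0.0393) and 575 nt with 3 transcripts (VPR -0.0234). The median of SAM against Suntag became 0.0175 with library totals alone and ran from -0.1951 (without Suntag replicate 2) to 0.0627 (without Suntag replicate 1), with 0.017 without SAM replicate 1. That of Suntag against VP64 ran from -0.2502 (without Suntag replicate 1) to 0.0119 (without Suntag replicate 2). With each library left out in turn, counts ran from 0 to 69 in VP64, 31 to 124 in VPR, 0 to 35 (0 to 1 lower) in SAM, 1 to 31 (0 to 11 lower) in Suntag and 0 to 109 (0 to 2 lower) pooled. They ran from 0 to 61 (0 to 2 lower) for VPR against SAM, 0 to 3 (0 to 39 lower) for SAM against VP64, 0 to 3 (0 to 53 lower) for Suntag against VP64, 0 to 22 (0 to 6 lower) for SAM against Suntag and 0 to 64 (0 to 3 lower) for VPR against Suntag. With the replicate number as a block, VPR against SAM had 0 lower, and the other 21 counts stayed within 1.5 times. The differences between replicates 1 and 2 correlated at -0.07 to 0.06 over the 10 pairs of groups. Such a correlation over all tested clusters could miss a small shared effect. Whether libraries of the same number were paired therefore stays unknown. In summed TPM, the short clusters held 14.0% of the VP64 total, 14.4% for VPR, 12.6% for SAM, 12.3% for Suntag and 11.9% for the control, and without the left-out clusters 2.40% of the control counts. With 1 library of a group left out, the share of counts ran from 2.95% to 3.01% for VP64, 3.08% to 3.29% for VPR, 2.47% to 2.78% for SAM, 2.44% to 2.97% for Suntag and 2.34% to 2.38% for the control. The cause of these differences between settings was not tested. The depth of 110 to 264 counts in the median short cluster limits what can be detected among the less abundant.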
